A study of Mus musculus with 4 samples.

Results

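Plexins are large single-pass membrane receptors, and semaphorins, most of which bind them, are secreted or membrane-bound guidance proteins. The cytoplasmic part of a plexin carries a GAP domain that switches off Rap GTPases, and B-type plexins also bind the GTPase exchange factors encoded by Arhgef11 and Arhgef12, through which they act on the actin skeleton. Class 4 semaphorins are membrane-anchored ligands, best known for signalling through B-type plexins between neighbouring cells in nerve, vessel, epithelium and immune tissue. The genes described here are 6 plexins (Plxna1, Plxna2, Plxnb1, Plxnb2, Plxnc1 and Plxnd1) and 4 class 4 semaphorins (Sema4a, Sema4b, Sema4c and Sema4d), 10 of the 22274 genes in the deposited table, found there by symbol. They were selected on family name with the KO against WT fold changes and calls of these libraries in view, so for the 10 genes those differences are a description and no test is read from them. All 10 passed the filter on low counts, although the table holds 9 plexins and 6 class 4 semaphorins in all.

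The libraries were made from poly(A) RNA of adult mouse testis, 2 from mice with Fam170a knocked out (KO) and 2 from wild-type mice (WT). The labels give no strain, exact age or design of the deleted allele, and none says whether replicates are from different mice, so any p-value measures only the spread between these libraries, which may be technical. In the genotype field, KO replicate 1 carries the name Fam170a and KO replicate 2 the name Fam171a. Fam170a itself had 1 count in each KO library, against 2240 and 3510 counts in the WT libraries. Total counts were 34740160 and 41684437 in KO and 26029374 and 35494303 in WT.

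Plxnb2 was the member that differed most, at 3.50 times the WT level in KO testis. Plexin-B2 is a receptor for Sema4C and for the ribonuclease angiogenin. Its gene had 8392 and 9168 counts in the KO libraries, against 1827 and 2541 in the WT libraries. In CPM (counts scaled by TMM to a common library size) this was 245 and 234 in KO and 70.2 and 66.5 in WT. Both KO libraries stood far above both WT libraries, and libraries of a genotype lay close together. The means were 239 ± 7.64 CPM in KO and 68.3 ± 2.62 CPM in WT (SD, n = 2 each), a log2 fold change of 1.81 ± 0.08 (SE, KO over WT). Ordered by fold change from the top, Plxnb2 was gene 50 of 15636 tested, and 89.7% of tested genes had a lower mean CPM.

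**Figure D1:**
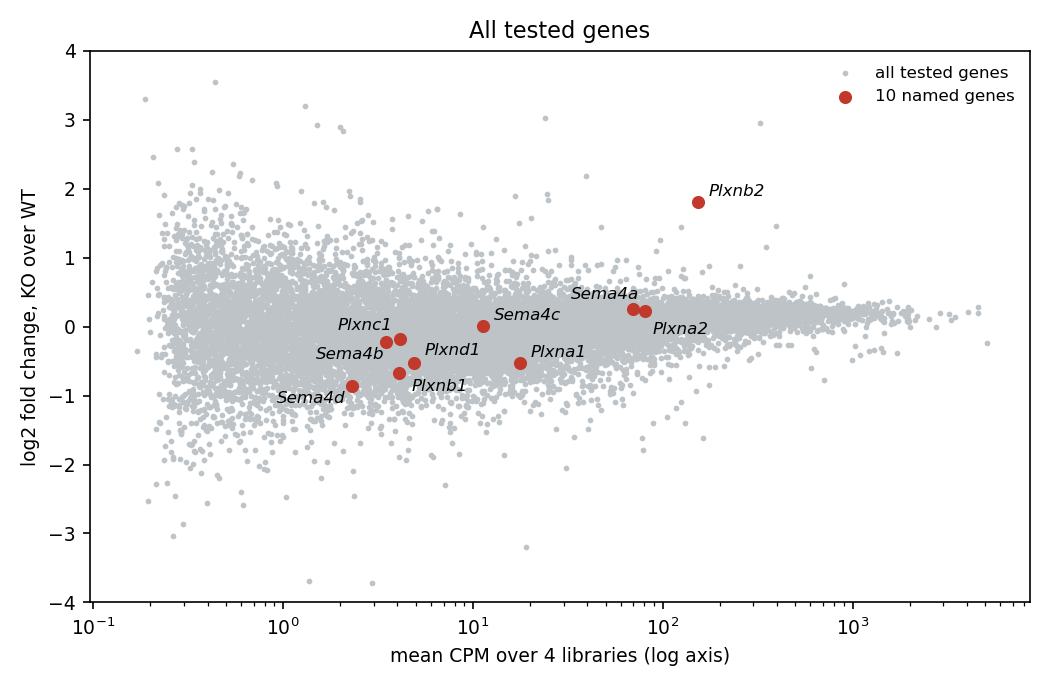
Log2 fold change (KO over WT) against mean CPM over the 4 libraries (log axis) for all tested genes in grey and the 10 plexin and semaphorin genes in red; 20 genes beyond 4 on the log2 scale are not drawn. Plxnb2 sits at 1.81, above most genes of like abundance, and the other members lie between -0.86 and 0.25.

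Plxnb2 (ENSMUSG00000036606) lies on the reverse strand of chromosome 15, where GENCODE M21 (build GRCm38) places it at 89155549 to 89180788; no label or header names the build the authors used. RefSeq lists 2 starts for it in GRCm38.p6, 6837 bases apart, and the outer one falls at the end of the GENCODE gene. The 250 bases before each start are printed because this gene carries the largest difference and the counts do not tell transcripts of the 2 starts apart. Capitals mark each GC box, written GGGCGG or its complement CCGCCC. Neither window overlaps a GENCODE exon. The outer window is chr15:89180789-89181038 and the inner one chr15:89173952-89174201, both written 5′ to 3′ on the reverse strand.
Plxnb2 outer start: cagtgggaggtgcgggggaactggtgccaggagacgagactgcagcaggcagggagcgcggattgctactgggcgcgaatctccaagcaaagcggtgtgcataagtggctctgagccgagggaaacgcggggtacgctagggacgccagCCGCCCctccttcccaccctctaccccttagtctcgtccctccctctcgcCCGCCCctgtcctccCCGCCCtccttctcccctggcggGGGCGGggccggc
Plxnb2 inner start: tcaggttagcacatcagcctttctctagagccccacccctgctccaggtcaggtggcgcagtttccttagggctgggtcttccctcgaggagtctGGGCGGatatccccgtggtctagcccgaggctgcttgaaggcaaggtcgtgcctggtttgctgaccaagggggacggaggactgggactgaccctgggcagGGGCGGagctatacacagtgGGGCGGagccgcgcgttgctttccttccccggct
The outer window held 4 GC boxes in 69.2% G and C, and the inner window 3 in 63.6%. RefSeq windows were found for 9 of the 10 genes, all but Plxna1, and 14 of their 17 windows held a GC box on either strand, with overlapping matches counted apart. Among all 32851 RefSeq windows of the same length, 32.7% held one. Some genes supply several of the 17 windows, and some of those of Sema4a overlap, so the windows are not independent. None of the 17 held a TATA box (TATAAA, in 12.4% of all windows) or a CRE half-site (TGACG, in 17.8%), and 1, upstream of Sema4b, held the E-box CACGTG (6.02% of all windows). These matches describe letters only.

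No annotated relative shares long stretches of sequence with Plxnb2. Of the 7810 distinct 50-base windows in its GENCODE transcripts, 0 occurred in a transcript of another gene on either strand. The only annotated gene inside it, the microRNA gene Mir7118, shares 0 exon bases with it. Plxnd1 also shared 0 of 7296 windows. The shared portion was 7.06% for Plxna1 and 5.93% for Sema4c, with the antisense genes Gm26811 and D430040D24Rik, and 2.19% for Plxnb1, with the antisense gene Gm7628. For the other 5 members it was 0.141% to 1.66%. Whether counting used strand is not given, so reads of Plxna1, Sema4c and Plxnb1 may include some of these partners.

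The other 2 abundant members had higher values in both KO libraries than in both WT libraries, as did 29.4% of all tested genes. They differed by far less than Plxnb2. Plxna2, a plexin that pairs with neuropilins for class 3 semaphorins and binds Sema6A directly, had 79.4 and 94.0 CPM in KO and 74.1 and 73.6 CPM in WT. The groups did not overlap, but KO replicate 1 was nearer to WT than to KO replicate 2. Its log2 fold change was 0.23 ± 0.11. Sema4a, a ligand studied in T cells and retina, had 79.7 and 72.5 CPM in KO and 66.2 and 61.5 CPM in WT, a log2 fold change of 0.25 ± 0.10. Here too both KO libraries lay above both WT libraries, by a margin close to the spread within a genotype. Among the 1431 tested genes with a mean of 50 to 100 CPM, where both lie, the median log2 fold change was 0.06, with quartiles of -0.09 and 0.18. Plxna2 spans 194618218 to 194816869 on chromosome 1 and Sema4a spans 88435959 to 88461182 on chromosome 3.

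A further 5 members were lower in both KO libraries than in both WT libraries, as were 27.9% of all tested genes. Plxna1, another neuropilin-dependent receptor (chromosome 6, 89316314 to 89362620), had 15.9 and 13.2 CPM in KO and 20.1 and 22.1 CPM in WT, a log2 fold change of -0.54 ± 0.14. Plxnb1, the high-affinity receptor of Sema4D and the other B-type plexin on the list (chromosome 9, 109095389 to 109119917), had 3.09 and 3.22 CPM in KO and 4.92 and 5.10 CPM in WT, a log2 fold change of -0.67 ± 0.18. The 2 B-type plexins on the list thus lay on opposite sides of their WT levels. Plxnd1, the endothelial receptor of Sema3E (chromosome 6, 115954811 to 115995005), had 3.82 and 4.24 CPM in KO and 4.84 and 6.72 CPM in WT, a log2 fold change of -0.53 ± 0.22. Its WT libraries differed from each other by more than the gap between WT replicate 1 and the nearer KO library. Sema4d, also called CD100 and known from lymphocytes and osteoclasts (chromosome 13, 51685529 to 51793747), was the least abundant member, with 61 and 59 counts in KO and 66 and 130 in WT. In CPM it had 1.78 and 1.51 in KO and 2.54 and 3.40 in WT, a log2 fold change of -0.86 ± 0.26. Sema4b, a membrane semaphorin found at synapses (chromosome 7, 80186841 to 80226527), had 3.53 and 2.94 CPM in KO and 3.61 and 3.92 CPM in WT, and its log2 fold change of -0.22 ± 0.20 was close to its SE.

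Plxnc1 and Sema4c had overlapping groups. Plxnc1, the receptor of Sema7A (chromosome 10, 94790866 to 94944835), had 4.23 and 3.47 CPM in KO and 5.45 and 3.30 CPM in WT, a log2 fold change of -0.17 ± 0.29. Sema4c, a ligand of plexin-B2 (chromosome 1, 36548639 to 36558349), had 12.0 and 10.8 CPM in KO and 8.91 and 13.7 CPM in WT. Its log2 fold change was 0.01 ± 0.22, and both KO values lay between the WT values. So where the receptor Plxnb2 stood at 3.50 times its WT level, this ligand had the same mean in both genotypes to within the WT spread, 11.4 ± 0.805 CPM in KO and 11.3 ± 3.35 CPM in WT (SD, n = 2 each). Its sign flips with DESeq2 size factors and with scaling by total counts, to log2 fold changes of -0.01 and -0.11, but these scalings put the median of all genes at -0.01 and -0.10 in place of 0.01, a shift that is not particular to Sema4c.

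**Figure D2:**
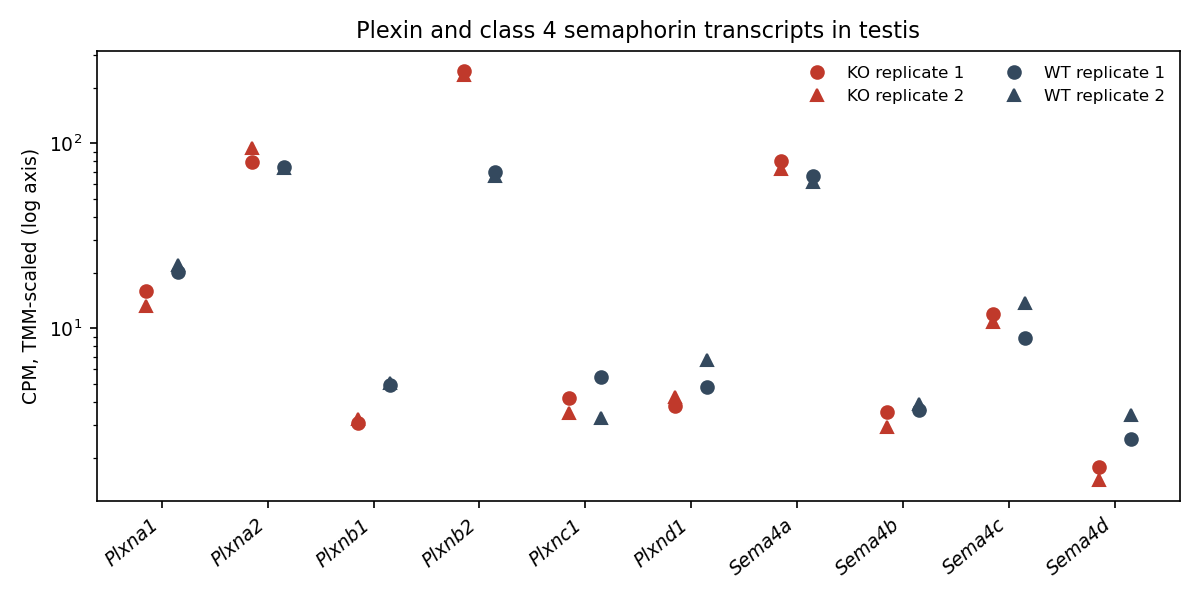
CPM in each library (log axis) for the 10 genes, KO in red to the left and WT in dark blue to the right, circles for replicate 1 and triangles for replicate 2. Plxnb2 is at 245 and 234 in KO and 70.2 and 66.5 in WT, while for Plxnc1 and Sema4c the KO points lie within the span of the WT points.

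In the fit over all genes, 1 of the 10 members (Plxnb2, higher in KO) had an edgeR adjusted p under 0.05, where 0.908% of all tested genes did in either direction and 0.454% in the higher direction. DESeq2 called Plxnb2 higher and Plxna1 lower, with 2.45% of all genes called higher and 4.02% lower, 6.47% together. The Plxna1 call lay at the edge of the threshold (DESeq2 adjusted p = 0.0491, edgeR adjusted p = 0.113). Without WT replicate 1, edgeR called Plxna1, Plxnd1 and Sema4d lower as well, which made 4 members, but that fit called 20.5% of all tested genes, 12.4% in the lower direction. Both KO libraries lay above both WT libraries for 3 members (29.4% of all tested genes) and below for 5 (27.9%), so 8 of the 10 did not overlap, against 57.3% of all genes. The median log2 fold change of the 10 was -0.20, beside 0.01 over all tested genes. None of these counts is evidence of its own, because the members were named with this contrast known.

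Per length the order of the members changed at the top. Dividing CPM by the merged exon length of each gene, Plxnb2 led in KO at 31.0 ± 0.990 CPM per kb, followed by Sema4a at 14.1 ± 0.944 (SD, n = 2). In WT, Sema4a led at 11.8 ± 0.618 CPM per kb and Plxnb2 followed at 8.85 ± 0.340 (SD, n = 2), again with no overlap between them. Plxna2 came next in both genotypes, at 5.05 ± 0.599 in KO and 4.30 ± 0.0215 in WT, then Sema4c at 2.48 ± 0.175 in KO and 2.46 ± 0.730 in WT. Plxna1 followed at 1.61 ± 0.207 in KO and 2.33 ± 0.157 CPM per kb in WT, where its range lay within that of Sema4c. The remaining 5 genes were under 1 CPM per kb in every library. In KO, Sema4b and Plxnd1 were not separated from each other, and in WT no neighbouring pair from Plxnd1 through Sema4b and Plxnc1 to Plxnb1 was separated in every library. Sema4d was last in both genotypes, at 0.214 ± 0.0252 in KO and 0.387 ± 0.0797 in WT. With the longest transcript in place of merged exons the levels of Plxnb2 and Sema4a were 36.9 and 23.8 in KO and 10.5 and 19.9 in WT.

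Among the 6 listed plexins, Plxnb2 held a larger share of the level per length in KO than in WT. The shares were not recalculated with the longest transcript as length. Plxnb2 held 80.4% and 78.6% of the summed CPM per kb of the 6 plexins in the KO libraries, against 52.1% and 50.1% in the WT libraries. The sum over all 6 was 39.5 and 38.6 CPM per kb in KO and 17.5 and 17.2 in WT. The sum over the 5 plexins other than Plxnb2 was 7.73 and 8.27 CPM per kb in KO and 8.36 and 8.58 in WT. The KO libraries differed from each other by more than the gap to the nearer WT library. In CPM without division by length, the KO and WT sums of these 5 genes overlapped, so no direction is read from them. The 4 class 4 semaphorins summed to 18.2 and 16.5 CPM per kb in KO and 15.2 and 15.5 in WT. Sema4a supplied 81.0% and 81.4% of that sum in KO and 80.8% and 73.5% in WT.

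**Figure D3:**
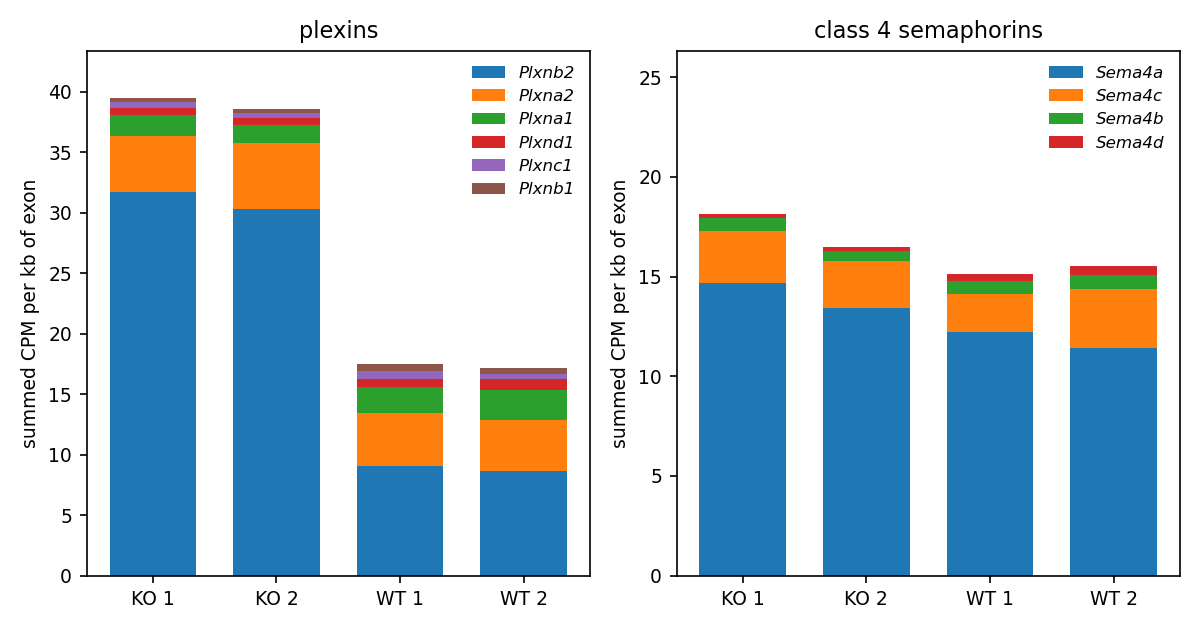
Stacked bars of summed CPM per kb of merged exon in each library, KO on the left and WT on the right of each panel, for the 6 plexins and the 4 class 4 semaphorins. The plexin sum is 39.5 and 38.6 in KO and 17.5 and 17.2 in WT, and the part without Plxnb2 (blue) is 7.73 and 8.27 in KO and 8.36 and 8.58 in WT.

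None of the tested genes around Plxnb2 on chromosome 15 had a difference of its size, with log2 fold changes of -0.40 to 0.36. The nearest 3 tested coding genes on each side were Hdac10, Mapk12, Mapk11, Dennd6b, Ppp6r2 and Sbf1, and none passed edgeR, while 1 (Ppp6r2, higher) had an unadjusted p under 0.05, and DESeq2 called 0. Dennd6b, which starts 15.7 kb from the Plxnb2 start, had 20.7 and 20.4 CPM in KO and 24.4 and 16.2 CPM in WT. Ppp6r2, a regulatory subunit gene of protein phosphatase 6, had 99.3 and 98.2 CPM in KO and 81.5 and 72.2 CPM in WT (log2 fold change 0.36 ± 0.09, edgeR adjusted p = 0.114). Around all 10 members, 60 neighbours were tested and 1 passed, in the lower direction (0.454% of all genes). It was Cks2, which encodes a small protein that binds cyclin-dependent kinases and lies 34.9 kb from the nearer end of Sema4d. Cks2 fell to 5.92 and 6.0 CPM in KO, against 14.3 and 17.2 CPM in WT (log2 fold change -1.40 ± 0.15, edgeR adjusted p = 0.0276). Without KO replicate 1, without KO replicate 2 and with a block on replicate number the count of called neighbours was 0, where 0.134%, 0.0704% and 0.0576% of all tested genes were called. It was 9 of 60 without WT replicate 1 and 2 of 60 without WT replicate 2, where 20.5% and 5.33% of all tested genes were called, so neither count exceeds that background.

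**Figure D4:**
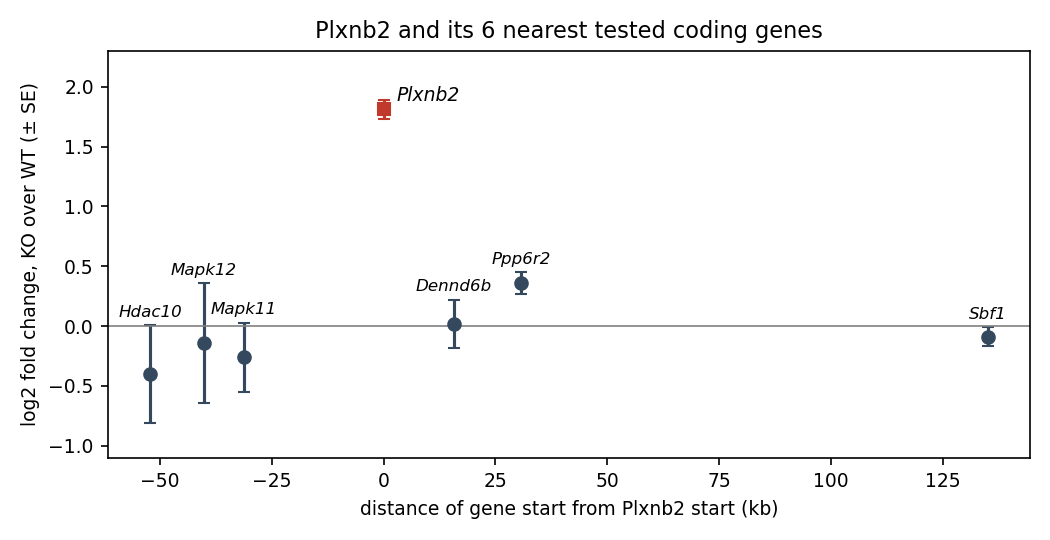
Log2 fold change (KO over WT, bars ± SE) of Plxnb2 and its 6 nearest tested coding genes against the distance of their starts from the Plxnb2 start in kb. Plxnb2 is at 1.81, and the neighbour with the largest positive value, Ppp6r2, is at 0.36.

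The rest of the pathway gave no edgeR call. Of 69 further genes, 65 were tested and 0 passed in either direction, while before adjustment 8 higher and 8 lower had p below 0.05, as did 24.6% of all genes, and DESeq2 called 0. Their median log2 fold change was 0.04. Without WT replicate 1 the count of calls was 7 of 65 and without WT replicate 2 it was 1 of 65, both smaller shares than the 20.5% and 5.33% of all tested genes called in those fits.

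Among the 5 remaining plexins and class 4 semaphorins, 4 were tested and 0 passed, while 1 had p below 0.05 before adjustment and DESeq2 called 0. That 1 was Sema4g, at 9.45 and 7.48 CPM in KO and 5.07 and 5.86 CPM in WT (log2 fold change 0.63 ± 0.18, edgeR adjusted p = 0.131). The next smallest p belonged to Sema4f, at 0.39 ± 0.39 on the log2 scale (edgeR adjusted p = 0.575). DESeq2 gave no adjusted p for Sema4f or Plxna3. Plxnb3, another B-type plexin, had 1 and 3 counts in KO and 0 and 1 in WT and was not tested.

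Of 14 semaphorins of other classes 13 were tested and 0 passed, while 2 higher and 2 lower had p below 0.05 before adjustment, and DESeq2 called 0. Sema3f, a secreted ligand that binds neuropilin-2, had 6.74 and 5.46 CPM in KO and 3.50 and 3.87 CPM in WT (log2 fold change 0.72 ± 0.19, edgeR adjusted p = 0.118). Sema7a, the ligand of plexin-C1, had 1.69 and 2.25 CPM in KO and 4.38 and 3.37 CPM in WT (log2 fold change -0.97 ± 0.26, edgeR adjusted p = 0.119). For both genes, named for the smallest p of their list, the groups did not overlap, as was so for 57.3% of all tested genes.

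Of 11 co-receptors and partners 10 were tested and 0 passed, while 1 higher and 1 lower had p below 0.05 before adjustment, and DESeq2 called 0. Plxdc1, a membrane protein with a plexin-like domain, was the most abundant of them at 138 and 143 CPM in KO and 115 and 109 CPM in WT (log2 fold change 0.32 ± 0.08, edgeR adjusted p = 0.112). Erbb2, a receptor tyrosine kinase that associates with B-type plexins, had 2.65 and 3.34 CPM in KO and 4.26 and 4.68 CPM in WT (log2 fold change -0.58 ± 0.21, edgeR adjusted p = 0.172).

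**Figure D5:**
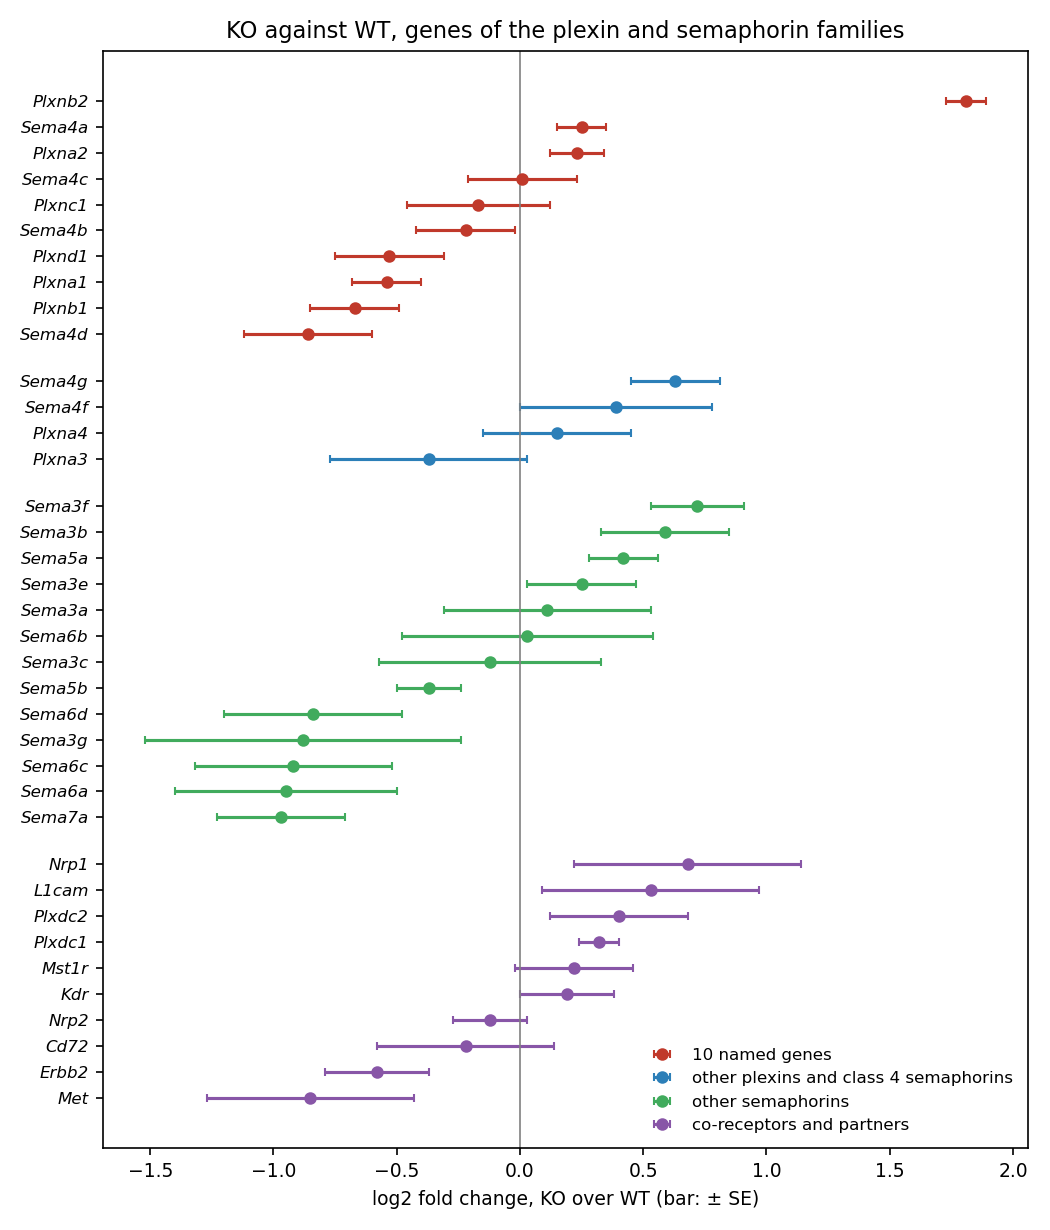
Log2 fold change (KO over WT) with bars of ± SE for the 10 members in red, the other tested plexins and class 4 semaphorins in blue, other semaphorins in green and co-receptors and partners in purple. Plxnb2 at 1.81 is the highest point, and the lowest is Sema7a at -0.97.

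Downstream, 33 genes of signalling to small GTPases and the cytoskeleton gave 32 tested and 0 called, while 4 higher and 3 lower had p below 0.05 before adjustment, and DESeq2 called 0. The smallest p-values were those of Rras, encoding a small GTPase that plexins act on, at 10.6 and 10.9 CPM in KO and 7.91 and 7.77 CPM in WT (log2 fold change 0.46 ± 0.13, edgeR adjusted p = 0.123), and of its relative Mras (0.55 ± 0.16, edgeR adjusted p = 0.128). The exchange factor genes of B-type plexins, named here for that role after their values were seen, were close to their WT levels. Arhgef11 was at 39.9 and 33.6 CPM in KO and 37.6 and 39.6 CPM in WT (log2 fold change -0.07 ± 0.12). Arhgef12 was at 34.4 and 30.5 CPM in KO and 36.3 and 35.8 CPM in WT (log2 fold change -0.15 ± 0.11). Of 6 proteases that process semaphorins and plexins 0 passed, while 2 lower ones had p below 0.05 before adjustment, and DESeq2 called 0. These were the convertase genes Furin and Pcsk6, with log2 fold changes of -0.59 ± 0.19 and -0.44 ± 0.17 (edgeR adjusted p = 0.141 and 0.196).

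Markers of the testis cell types also varied between libraries, and their part in any of the values above was not tested. In bulk tissue, fewer cells of a type and less RNA per cell cannot be told apart. Spermatocyte markers summed to 2680 and 2840 CPM in KO and 3070 and 3020 in WT, and spermatid markers to 5630 and 8370 in KO and 10600 and 4560 in WT, in each library well above the somatic lists that follow. Sertoli markers summed to 36.4 and 45.4 CPM in KO and 104 and 47.1 in WT, and Leydig markers to 7.61 and 6.43 in KO and 18.0 and 9.60 in WT. Peritubular and vascular markers summed to 80.2 and 53.4 CPM in KO and 50.5 and 40.1 in WT. Of them 6 had positive and 6 negative fold changes, with a median log2 fold change of -0.21. A large part of the sum was Dcn, at 41.1 and 19.0 CPM in KO and 17.4 and 3.22 in WT. Before adjustment, edgeR p was below 0.05 for 2 higher and 3 lower markers of this list. The higher ones were Col1a2 and Pdgfra, with log2 fold changes of 1.38 and 1.18. The lower ones were Acta2, Myh11 and Tagln, at -0.68, -0.62 and -0.91. Macrophage and leukocyte markers, all 11 with positive fold changes, summed to 53.6 and 29.5 CPM in KO and 38.4 and 8.79 in WT. Spermatogonial markers summed to 74.9 and 71.3 CPM in KO and 84.8 and 108 CPM in WT. Over these 7 lists edgeR called 2 markers, both lower: Id4 among 9 tested spermatogonial markers and Piwil1 among 10 spermatocyte markers, where 0.454% of all tested genes were called lower. Piwil1, which encodes a piRNA-binding protein of germ cells, had 84.6 and 76.2 CPM in KO and 231 and 261 CPM in WT (log2 fold change -1.61 ± 0.10, edgeR adjusted p = 0.00713). Id4, a marker of spermatogonial stem cells, had 7.21 and 6.46 CPM in KO and 13.1 and 15.2 CPM in WT (log2 fold change -1.05 ± 0.15). Its edgeR adjusted p rounds to 0.05, so its call lies at the edge of the threshold. DESeq2 called Piwil1, Sycp1 and Sycp3 of the spermatocyte list, Id4 and Uchl1 of the spermatogonial list and the Leydig marker Insl3 lower. It called Col1a2 of the peritubular and vascular list higher. Of all tested genes DESeq2 called 4.02% lower and 2.45% higher. Neither tool called a Sertoli, macrophage and leukocyte or spermatid marker, of which 2, 2 and 2 had p below 0.05 before adjustment by edgeR. Among those, DESeq2 gave no adjusted p for the Sertoli marker Sox9 or for Cd163 and Ptprc. Sox9 had 0.263 and 0.383 CPM in KO and 1.61 and 0.968 in WT (log2 fold change -1.96 ± 0.45, edgeR adjusted p = 0.102). Of 11 tested Sertoli markers, 9 had negative and 2 positive fold changes.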

How the data were processed

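Poly(A) RNA from adult testis was sequenced in 2 KO and 2 WT libraries. The deposited table holds whole-number read counts for 22274 Ensembl genes, with no normalization visible in the values. Per the submitters' processing notes, the tools were HISAT2 2.1.0, Bowtie2 2.2.8, RSEM, StringTie 1.3.1 and fastp 0.18.0, with no role or order given. Genome build, annotation, strandedness and the handling of ambiguous reads are not stated there. Each column was tied to a sample through the genotype and number in its name.

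Genes were filtered with filterByExpr (minimum count 10, minimum total 15), which left 15636, and tested with edgeR 4.0.16 in R 4.3.3 (TMM scaling, two-sided quasi-likelihood test, genotype as the only term). Adjusted p-values are Benjamini-Hochberg values over the 15636 genes, called under 0.05. The SE is the absolute log2 fold change divided by the square root of F. The fit was also run on counts simulated with dispersions estimated from these libraries. That run cannot show whether the libraries themselves meet the assumptions of the test. Symbols, positions and exon lengths came from GENCODE M21, which matched 22219 identifiers, and promoter sequences from RefSeq on GRCm38.p6. Total counts were 26029374 to 41684437 per library. Libraries of a genotype were not duplicates (chi-square per degree of freedom 10.4 in KO and 44.4 in WT).

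The members and gene lists were chosen with earlier results of these data known. Named were all 10 members, Fam170a, and each pathway list's calls plus the 2 smallest p-values among the rest. Called neighbours and some of the genes that overlap a member were also named. Beyond that rule, a few genes were chosen after their values were seen. Neighbours were the 3 nearest tested coding genes on each side. Alternatives were DESeq2 size factors, total counts, no filter, DESeq2 1.42.0, a replicate block, each library left out, and the longest transcript as length. DESeq2 gave no adjusted p for some genes with low counts, in the pathway, neighbour and marker lists too. Such genes count as not called by DESeq2. An omitted library leaves its genotype with 1, assumed to vary like the other pair.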

Additional observations from a re-analysis of the deposited data

How the results depend on the processing

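Plxnb2 kept its direction and its call under all 9 alternatives, with log2 fold changes of 1.70 to 1.84; leaving out 1 library gave 1.76 to 1.84. The count of members called was 2 with DESeq2 and 1 to 4 with 1 library left out. Of further pathway genes 0 to 7 were called, and of neighbours 0 to 9, with 1 library left out. Plxnc1 ran from -0.51 to 0.16 and Sema4c from -0.32 to 0.35 over the left-out libraries, so neither has a fixed direction. Sema4c was at -0.01 with DESeq2 size factors or DESeq2 and -0.11 with total counts. No other member changed sign. Levels per length moved by more than 1 SD in 14 of 20 recalculations with the longest transcript as length and in 4 of 20 with total counts; with 2 libraries, leaving out 1 cannot move a mean that far.

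Over all genes 142 were called, against 107 with DESeq2 size factors, 82 with total counts (32 higher and 50 lower, with the median of all genes at -0.10 in place of 0.01), 451 without a filter, 1011 with DESeq2, and 11 without KO replicate 2, 21 without KO replicate 1, 834 without WT replicate 2 and 3200 without WT replicate 1. The cause was not tested. The replicate block, on numbers that the labels tie to nothing, called 9 genes, 1 member (Plxnb2) and 0 neighbours; deviations of same-numbered libraries correlated at -0.243 across genes. At 59 to 130 counts per library, Sema4d was the least abundant member, while the largest SE was that of Plxnc1 (0.29, against 0.26 for Sema4d).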
